A study of Mus musculus with 10 samples.

Results

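The Ifit genes encode interferon-induced proteins with tetratricopeptide repeats, which are among the most strongly induced products of the antiviral response. Their members were taken by gene symbol, as the probe sets whose only symbol was Ifit1, Ifit2, Ifit3 or Ifit3b, and the family holds 4 of the 19938 genes measured. Each of the 4 genes had 1 such probe set. The family was chosen by its measured difference between adiponectin and control cultures, so that difference is given here as a description without a test.

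Bone marrow cells from the long bones of male Swiss mice aged 4 to 6 weeks were grown for up to 120 h in αMEM medium that held 10% FCS and 1,25(OH)2D3, an active vitamin D hormone that promotes the formation of bone-resorbing osteoclasts. The adiponectin cultures received recombinant mouse adiponectin, a hormone of fat cells, at 5 µg/ml, and the control cultures received vehicle, named untreated in part of the labels. One culture of each kind was taken at each of 4, 10, 24, 72 and 120 h and its RNA was hybridised to an Affymetrix whole-transcript array. There were thus 10 arrays in 5 pairs, and precision is limited by that number. Serum and 1,25(OH)2D3 were common to both kinds of culture. The labels do not say whether cultures came from separate animals, so SDs and p-values cover only how far these cultures differed from each other. Each pair had its own time, so the SD over pairs also holds any change of the difference with time. The same holds for the spread behind the p-values of adiponectin against control. The rest of that spread may be technical. Lipopolysaccharide (bacterial endotoxin) contamination is named in the study's title, and the Ifit genes are known to respond to it.

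Lipopolysaccharide binds Toll-like receptor 4, whose adaptor Trif activates the transcription factor Irf3. Irf3 switches on Ifit genes directly and also the gene of interferon beta, and secreted interferon then acts through its receptor and a complex that holds Stat2 and Irf9 on a DNA motif called the interferon-stimulated response element. Ifit proteins bind viral RNA: mouse Ifit1 recognises the 5′ cap of RNA that lacks the methyl mark of host messages and blocks its translation. Ifit2 protects mice from infection of the nervous system, and human IFIT3 stabilises IFIT1.

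Macrophage markers had a summed level of 15.72 to 15.81 in adiponectin cultures and 15.62 to 15.90 in control cultures (log2 of the summed values of 6 of 6 markers). Single markers varied more, and Mrc1, the mannose receptor, spanned 2.54 in adiponectin cultures and 1.83 in control cultures. No macrophage marker passed limma, while 3 of 6 differed at an unadjusted p under 0.05. Neutrophil markers (7 of 7) spanned 13.35 to 16.05 in adiponectin cultures and 13.25 to 16.31 in control cultures, and were lowest at 120 h in both. Osteoclast markers (6 of 6) spanned 13.41 to 15.03 in adiponectin cultures and 13.46 to 15.43 in control cultures, and Atp6v0d2, a proton pump subunit, fell by 0.91 (limma adjusted p = 0.00346). For plasmacytoid dendritic cells, a main source of type I interferon, 5 of 6 markers were measured. Their summed level was 11.84 to 12.34 in adiponectin cultures and 11.86 to 12.27 in control cultures. That sum was weighted to Tcf4, which went from 11.02 at 4 h to 11.36 at 120 h in adiponectin cultures and from 11.07 to 11.30 in control cultures. Over the same time Siglech went from 9.88 to 7.61 and from 9.78 to 7.70, and Ccr9 from 9.90 to 7.24 and from 9.77 to 7.65. Cox6a2 and Pacsin1 were also lower at 120 h than at 4 h in both arms. Array medians lay between 8.40 and 8.48 except for the 10 h control, at 8.27.

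The Ifit genes lie in one stretch of chromosome 19 (RefSeq, GRCm38.p6), in the order Ifit2 (chr19:34550550-34576534), Ifit3 (chr19:34583119-34588982), Ifit3b (chr19:34607530-34613403), the relative Ifit1bl2 (chr19:34617046-34640827) and Ifit1 (chr19:34640889-34650009). Ifit1bl1 lies in the same stretch and is not analysed here. The promoter sequences below, from RefSeq on the plus strand of GRCm38.p6, run from 250 bases before to 50 bases after the start site. Capitals mark each match to the core of the interferon-stimulated response element, GAAANNGAAA, searched on both strands (its other strand reads TTTCNNTTTC). Only members whose windows held a match are shown. Any part of this motif in the measured differences was not tested.
Ifit1, chr19:34640639-34640938: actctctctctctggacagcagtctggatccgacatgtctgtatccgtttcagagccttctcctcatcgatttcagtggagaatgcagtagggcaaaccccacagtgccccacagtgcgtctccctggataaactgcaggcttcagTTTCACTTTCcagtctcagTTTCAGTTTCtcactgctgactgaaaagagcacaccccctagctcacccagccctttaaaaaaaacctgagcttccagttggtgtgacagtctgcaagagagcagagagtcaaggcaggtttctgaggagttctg
Ifit3, chr19:34583279-34583578: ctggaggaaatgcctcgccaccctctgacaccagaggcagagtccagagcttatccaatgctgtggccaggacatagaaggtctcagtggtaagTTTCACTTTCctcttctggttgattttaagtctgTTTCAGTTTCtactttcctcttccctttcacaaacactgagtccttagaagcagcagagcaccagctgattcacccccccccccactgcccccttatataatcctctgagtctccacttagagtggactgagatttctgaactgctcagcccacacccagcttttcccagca
Ifit3b, chr19:34607707-34608006: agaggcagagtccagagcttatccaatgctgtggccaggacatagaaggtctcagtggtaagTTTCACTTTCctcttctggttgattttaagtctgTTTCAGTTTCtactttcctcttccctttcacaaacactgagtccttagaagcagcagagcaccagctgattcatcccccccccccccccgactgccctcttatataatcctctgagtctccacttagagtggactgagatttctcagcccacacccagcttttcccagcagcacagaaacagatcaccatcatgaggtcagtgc

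The core occurred in 2 copies in each of these promoters, beginning 104 and 85 bases before the start site in Ifit1, 156 and 122 bases before it in Ifit3, and 188 and 154 bases before it in Ifit3b. The upstream copy read TTTCACTTTC and the downstream copy TTTCAGTTTC in all 3. Of 32851 mouse promoter windows of 300 bases, 3.44% held at least 1 copy and 0.225% held at least 2. The windows of Ifit2 at its 2 listed start sites held none, which says only that these letters are not in those windows. Ifit3 and Ifit3b promoters could be aligned over 260 paired bases, of which 258 were identical, with 14 gap bases inside the alignment. Promoters do not show how alike the transcripts are, and transcripts were not compared. The probe sets of Ifit3 and Ifit3b may in part read the same RNA, and this was not tested because probe sequences were not used here. Ifit1bl2 has 2 listed start sites. One points away from that of Ifit1 and lies 146 bases from it, so that these windows share 245 bases and the same 2 core matches. The window at the other (chr19:34629762-34630061) shares no base with that of Ifit1 and held no core match.

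Ifit1, the sensor of foreign caps, was high in every adiponectin culture. From 4 to 120 h its level was 12.38, 11.88, 11.99, 11.51 and 11.33 (log2) in adiponectin cultures, against 8.86, 8.69, 9.35, 9.41 and 8.40 in control cultures. The lowest adiponectin value was 1.92 above the highest control value, so the groups did not overlap. The difference averaged 2.88 ± 0.54 on the log2 scale (mean ± SD, n = 5 pairs), a 7.34-fold higher level, and was widest at 4 h, the first time sampled, at 3.52. In these bulk cultures a change in the number of cells that carry a transcript and a change in transcript per cell cannot be told apart.

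Ifit2 had values of 12.42, 12.35, 12.79, 11.72 and 11.37 in adiponectin cultures from 4 to 120 h, against 9.56, 8.76, 9.85, 9.52 and 7.98 in control cultures. The groups did not overlap, with a gap of 1.52 between the lowest adiponectin and the highest control value. Its difference averaged 2.996 ± 0.54 (7.98-fold; n = 5 pairs) and was widest at 10 h, at 3.59, followed by 3.39 at 120 h. With each array centred on its median, those 10 h and 120 h differences were 3.46 and 3.41. The 10 h control array had the lowest median.

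Ifit3 stood at 12.53, 12.88, 12.75, 12.41 and 12.02 in adiponectin cultures from 4 to 120 h, against 9.43, 9.57, 10.29, 10.48 and 8.81 in control cultures. Again the groups did not overlap, with a gap of 1.54. The adiponectin values spanned 0.86, the narrowest range of any member in that arm, and the control values 1.66. The mean difference was 2.80 ± 0.59 (6.97-fold; n = 5 pairs).

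Ifit3b, the copy of Ifit3, was at 9.19, 9.89, 10.17, 9.08 and 8.64 in adiponectin cultures from 4 to 120 h, against 5.98, 5.51, 6.55, 6.68 and 5.58 in control cultures. Its groups were separated by 1.96, and its mean difference of 3.33 ± 0.73 (10.1-fold; n = 5 pairs) was the largest among the members. At 10 h it reached 4.37, a 20.7-fold difference, or 4.23 with each array centred on its median, since the 10 h control array had the lowest median. The control values of Ifit3b all lay below every array median, and signal over background is unknown. Its mean level was at percentile 36.4 among genes, against 81.4 for Ifit1, 84.5 for Ifit2 and 90.1 for Ifit3. The size of its difference, and its rank among the members, are less certain for that reason. All 4 members were higher in 5 of 5 pairs and had groups without overlap. Over all 19938 genes, 6.32% were higher in 5 of 5 pairs and 1.53% had adiponectin values all above the control values. Those shares are given as background only, since this contrast chose the family.

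**Figure D1:**
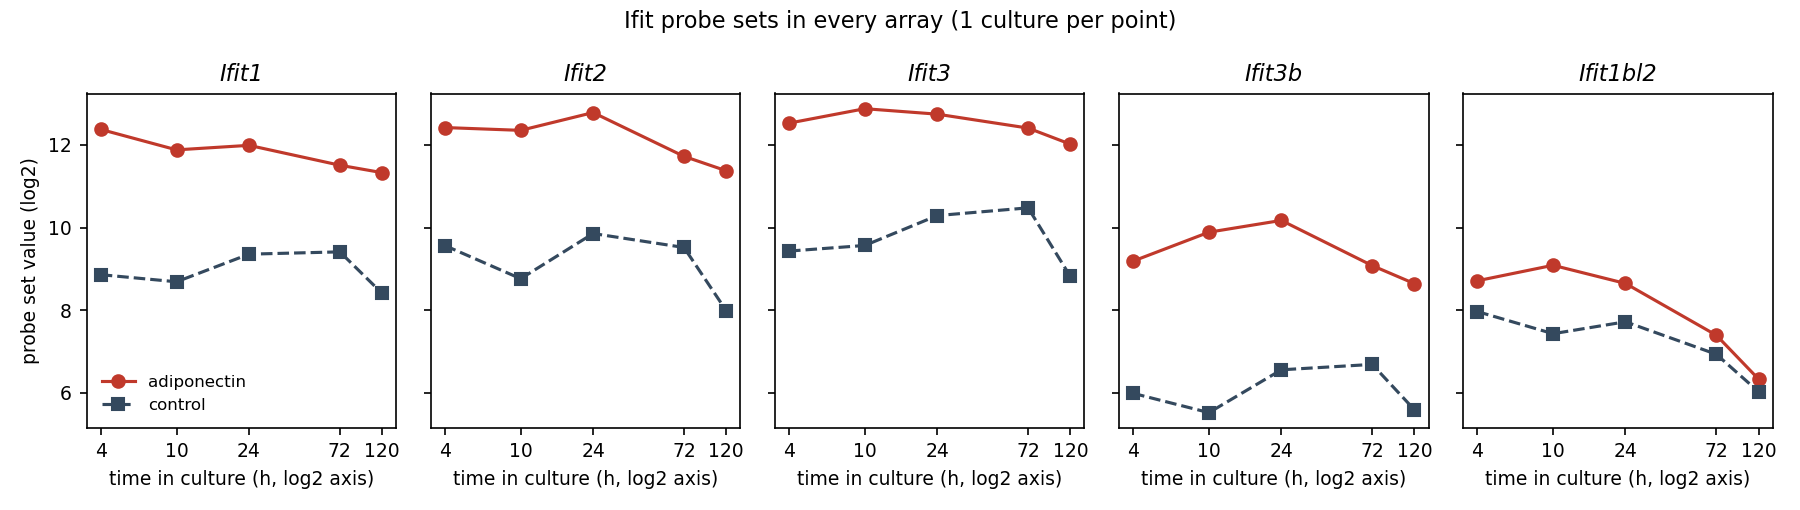
Log2 probe set values (vertical axis) of the 4 Ifit genes and the relative Ifit1bl2 against time in culture in hours (log2 axis), with 1 culture per point, adiponectin as red circles and control as dark squares. For each of the 4 genes the adiponectin values lie above all control values, whereas those of Ifit1bl2 come down to 6.33 at 120 h, beside a control value of 6.02.

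The difference was smallest at 72 h in all 4 members. The mean over the 4 members was 3.17 at 4 h, 3.62 at 10 h, 2.91 at 24 h, 2.16 at 72 h and 3.14 at 120 h (log2, adiponectin minus control). The 10 h mean rests on the control array with the lowest median. With centring, Ifit3 was widest at 120 h (3.22, against 3.18 at 10 h), while Ifit2 and Ifit3b stayed widest at 10 h. At 4 h the members already differed by 7.25-fold (Ifit2) to 11.5-fold (Ifit1), and at 120 h by 7.59-fold to 10.5-fold. At 72 h it was 2.10 for Ifit1, 2.21 for Ifit2, 1.93 for Ifit3 and 2.39 for Ifit3b. Among the 408 genes called higher in adiponectin cultures, 27.7% had their smallest difference at 72 h, and among all genes 13.6% did. At that time the summed osteoclast markers stood at 14.35 in the adiponectin culture, against 15.38 in the control culture, and the part of this gap in the smaller Ifit difference was not tested. A 4-fold difference was passed by all 4 members at 4, 10, 24 and 120 h and by 3 of 4 at 72 h, so Ifit1, Ifit2 and Ifit3b passed it at every time, as did 0.0602% of all genes. The share of all genes at least 4-fold higher was 0.135% at 4 h, 0.206% at 10 h, 0.261% at 24 h, 0.11% at 72 h and 0.206% at 120 h.

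**Figure D2:**
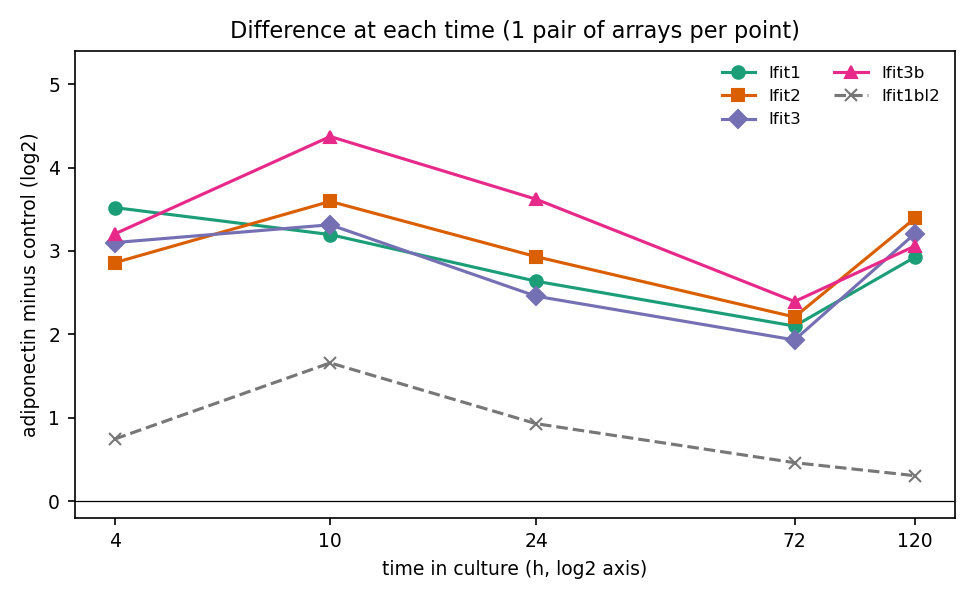
Adiponectin minus control (log2, vertical axis) against time in culture in hours (log2 axis), 1 pair of arrays per point, for the 4 Ifit genes (solid lines) and Ifit1bl2 (dashed). The solid lines come closest together at 72 h, between 1.93 and 2.39, and spread most at 10 h, between 3.20 and 4.37.

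Whether the difference changed steadily with time was tested by the treatment by log2 hours term, fitted over all genes. No member passed. The difference moved by -0.20 ± 0.07 per doubling of hours for Ifit1 (estimate ± SE; limma adjusted p = 0.499), by -0.05 ± 0.095 for Ifit2 (0.864), by -0.11 ± 0.10 for Ifit3 (0.658) and by -0.19 ± 0.11 for Ifit3b (0.543). With limma, 0 of 19938 genes passed in either direction (0.0% called), while 620 had a rising and 1339 a falling difference at an unadjusted p under 0.05. With an intensity trend and robust prior, 2 genes rose and 3 fell, none of them a member. A straight line over time does not describe a dip at 72 h followed by a wider difference at 120 h, and with 1 pair per time that shape has no replicate.

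In the control cultures, which received no adiponectin, the members moved the same way in 2 of the 4 intervals between times. Every member was higher at 24 h than at 10 h in control cultures, by 0.67 for Ifit1, 1.09 for Ifit2, 0.72 for Ifit3 and 1.04 for Ifit3b (log2). Every member was then lower at 120 h than at 72 h, with log2 changes of -1.01 for Ifit1, -1.53 for Ifit2, -1.66 for Ifit3 and -1.10 for Ifit3b. Falls of at least 2-fold between these times were seen in 4 of 4 members, against 0.677% of all genes in control cultures. With each array centred on its median the fall of Ifit1 was -0.999, so 3 of 4 members and 0.652% of all genes passed. Rises of at least 2-fold between 10 and 24 h were seen in Ifit2 and Ifit3b, against 0.416% of all genes. The 10 h control array had the lowest median, and with centring these rises were 0.88 for Ifit2 and 0.83 for Ifit3b, so 0 of 4 members and 0.14% of all genes passed. In the other intervals the members went both ways. Between 4 and 10 h the control changes were -0.17 for Ifit1, -0.80 for Ifit2, 0.14 for Ifit3 and -0.47 for Ifit3b, and between 24 and 72 h they were 0.06 for Ifit1, -0.34 for Ifit2, 0.19 for Ifit3 and 0.13 for Ifit3b. These steps were picked out after the values were seen, rest on single arrays and have no test.

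In adiponectin cultures the late step was smaller. Between 72 and 120 h the changes were -0.18 for Ifit1, -0.35 for Ifit2, -0.39 for Ifit3 and -0.44 for Ifit3b, none reaching 2-fold, against 0.542% of all genes that were at least 2-fold lower. The wider difference at 120 h than at 72 h therefore came with lower control values, not with higher adiponectin values. The 24 to 72 h step was -1.06 for Ifit2 and -1.10 for Ifit3b but -0.48 for Ifit1 and -0.34 for Ifit3. Falls of at least 2-fold in that interval were seen in 1.35% of all genes in adiponectin cultures.

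As straight lines over log2 hours, the courses of the members did not pass in either arm. In adiponectin cultures the slopes per doubling of hours were -0.19 ± 0.07 for Ifit1 (estimate ± SE; limma adjusted p = 0.158), -0.21 ± 0.12 for Ifit2 (0.401), -0.11 ± 0.11 for Ifit3 (0.685) and -0.14 ± 0.12 for Ifit3b (0.602). With the 5 adiponectin arrays fitted alone, the slope of Ifit1 passed (limma adjusted p = 0.0234). In control cultures they were 0.00 ± 0.07 for Ifit1 (0.987), -0.17 ± 0.12 for Ifit2 (0.408), 0.00 ± 0.11 for Ifit3 (0.991) and 0.05 ± 0.12 for Ifit3b (0.829). Of all genes, 4.15% rose and 3.46% fell in adiponectin cultures, and 4.64% rose and 4.45% fell in control cultures, by the same limma fit.

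Ifit1bl2, a relative of Ifit1 whose function is little described, had a smaller mean difference than each of the 4 members. From 4 to 120 h it was at 8.71, 9.09, 8.64, 7.39 and 6.33 in adiponectin cultures, against 7.96, 7.43, 7.72, 6.93 and 6.02 in control cultures. It was higher in 5 of 5 pairs, but the groups overlapped. Its mean difference was 0.82 ± 0.53 (1.76-fold; n = 5 pairs; limma adjusted p = 0.0198), against 2.05% of all genes called higher and 0.371% called lower. That call was lost without the 4 h pair (limma adjusted p = 0.0571) or the 24 h pair (0.112), without time as a block (0.999823) and with log2 hours in its place (0.281). It declined over time in adiponectin cultures, by -0.50 ± 0.11 per doubling of hours (limma adjusted p = 0.0216), and had a slope of -0.34 ± 0.11 in control cultures (0.0785). The decline in adiponectin cultures lost its call without the 10, 72 or 120 h pair (limma adjusted p up to 0.223) or with that arm fitted alone (0.0501). B cell and neutrophil markers also fell to their lowest summed levels at 120 h in both arms, with B cell markers (4 of 5 measured) spanning 11.15 to 13.73 in adiponectin cultures and 10.70 to 13.76 in control cultures, and their part in the decline was not tested.

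Outside the cluster, the mean differences of the measured neighbours were smaller than those of the 4 members. Of the 5 genes before it and the 5 after it in RefSeq, 5 were measured. Ch25h, the enzyme that makes 25-hydroxycholesterol and itself an interferon-stimulated gene, was at 10.34, 8.83, 9.53, 9.22 and 9.25 in adiponectin cultures from 4 to 120 h, against 7.60, 7.81, 8.64, 8.73 and 8.39 in control cultures. It rose by 1.20 ± 0.88 (n = 5 pairs; limma adjusted p = 0.0293) with its widest difference, 2.74, at 4 h, and the call was lost without the 10, 24 or 120 h pair (limma adjusted p up to 0.0979), under a trended, robust variance prior (0.239), after repeated quantile normalization (0.0572), without time as a block (0.153) and with log2 hours in its place (0.0662). Fas, a death receptor, differed by 0.52 ± 0.41 (limma adjusted p = 0.0810). Lipa, the lysosomal acid lipase, the nearest measured gene before Ifit2, differed by -0.13 ± 0.19 (limma adjusted p = 0.731). On the far side, after Ifit1, the monocarboxylate transporter Slc16a12 differed by -0.08 ± 0.21 (limma adjusted p = 0.881) and the pantothenate kinase Pank1 by -0.14 ± 0.33 (0.801).

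**Figure D3:**
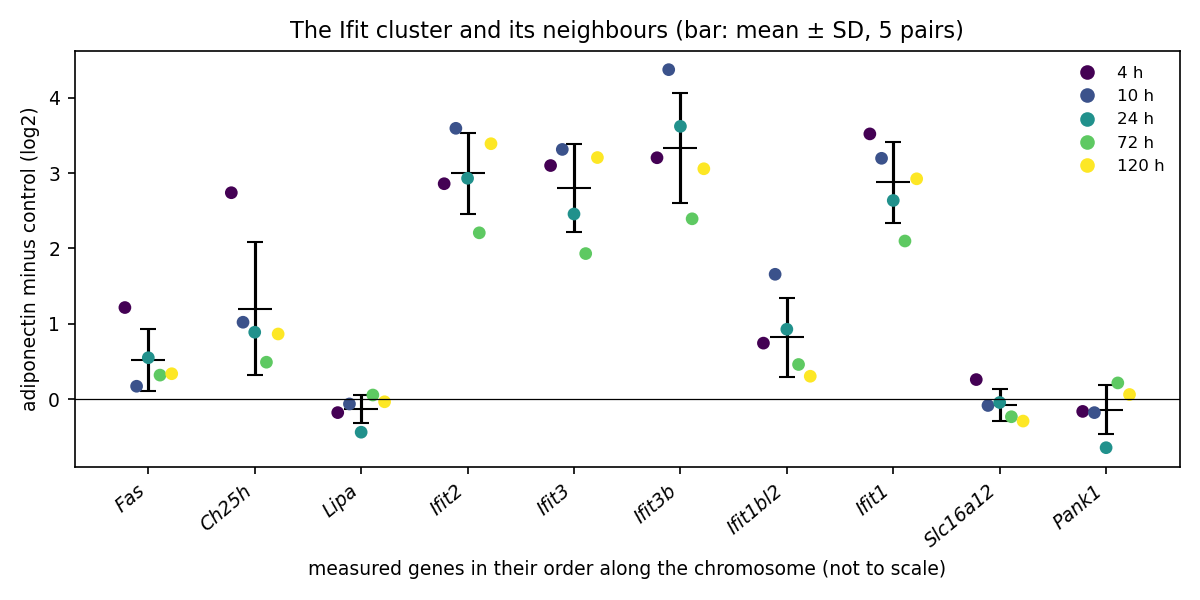
Adiponectin minus control (log2, vertical axis) for the measured genes of the Ifit cluster and its neighbours, in their order along the chromosome (horizontal axis, not to scale). Points are the 5 pairs coloured by time and bars the mean ± SD; the 4 Ifit members lie at means of 2.80 to 3.33, Ifit1bl2 at 0.82, and Lipa, Slc16a12 and Pank1 between -0.14 and -0.08.

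Ifitm genes share the start of their name but form another family of membrane proteins. Ifitm3, which blocks virus entry, rose by 0.32 ± 0.06 (limma adjusted p = 0.0326), a call lost without any 1 of the 5 pairs (limma adjusted p up to 0.171), without time as a block (0.272) and with log2 hours in its place (0.136). The other 6 measured Ifitm genes did not pass, and Ifitm1 for example differed by 0.14 ± 0.76 (limma adjusted p = 0.917).

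The genes most like the family were found by the root mean square difference between profiles centred on each gene's mean over the 10 arrays. The members themselves lay 0.20 (Ifit3) to 0.27 (Ifit3b) from their own mean profile, and the median gene lay 1.57 from it. Nearest among other genes were Mx1, a GTPase that blocks virus replication, at 0.28, Oasl1, an Oas-like protein that in mice represses translation of Irf7, at 0.29, and Usp18, which removes Isg15 from proteins and restrains the interferon receptor, at 0.32. The chemokine gene Ccl5 followed at 0.37, Mx2 at 0.45, Trim30d at 0.53, Phf11a at 0.53, the mitochondrial nucleotide kinase Cmpk2 at 0.55, Phf11d at 0.55 and Gm12250 at 0.56. Chosen by likeness, these genes also had large differences, of 2.71 ± 0.49 for Mx1, 2.69 ± 0.45 for Oasl1 and 3.47 ± 0.52 for Ccl5 (log2, mean ± SD, n = 5 pairs), and that of Ccl5 was above the mean of every member. Each member had its own nearest gene, which was Oasl1 for Ifit1 (0.20), Mx1 for Ifit2 (0.26), Ifit1 for Ifit3 (0.27) and Ccl5 for Ifit3b (0.28). Ifit3 was thus nearer to Ifit1 than to its copy Ifit3b, from which it lay 0.40. The response element core was present in the promoters of 3 of the 6 nearest genes that had a window and of 11 of 21 other interferon-stimulated genes with one, against 3.99% of 27025 genes. Mx1, Oasl1, Usp18, Mx2 and Cmpk2 are both nearest genes and listed interferon-stimulated genes, so those shares are not independent.

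**Figure D4:**
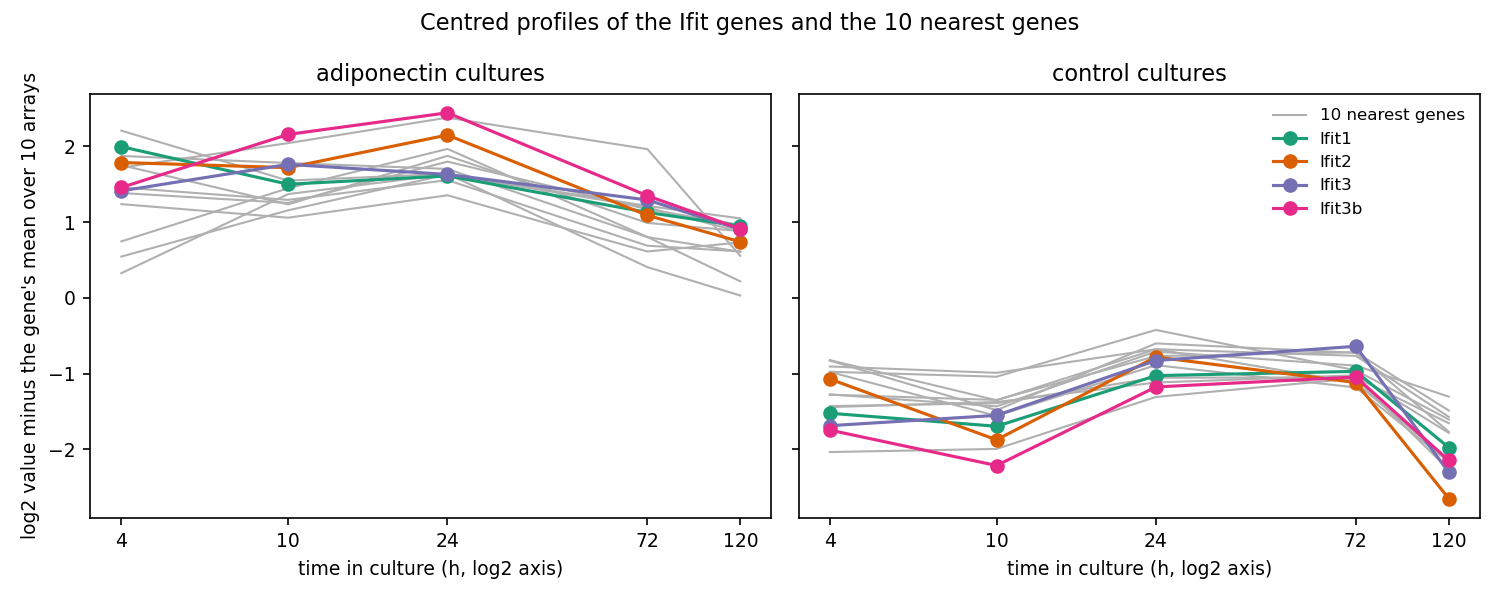
Log2 value minus the gene's own mean over the 10 arrays (vertical axis) against time in culture in hours (log2 axis), in adiponectin cultures (left) and control cultures (right), for the 4 Ifit genes (colours) and the 10 nearest genes (grey). All of the coloured lines in control cultures turn down between 72 and 120 h, by 1.01 to 1.66, and those in adiponectin cultures by 0.18 to 0.44.

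Of 27 measured interferon-stimulated genes in a list of 30, 27 rose and 0 fell. Their median difference was 1.46, against a median of 2.94 over the Ifit members and 0.01 over all genes, where 2.05% rose. Without each pair in turn, 25 to 26 genes of the list passed as higher. The list, like those below, was drawn up with earlier results of these data known, so its count is a description and not independent support. Usp18 is in this list and in that of feedback genes. Rsad2 (viperin), which makes a chain-terminating nucleotide, rose by 2.65 ± 0.29 (limma adjusted p = 7.02e-07), close to the members, whereas Ifitm3 was lowest at 0.32. At 4 h the Ifit members had reached 73.3% (Ifit3b) to 100% (Ifit1) of their largest log2 difference, without centring of the arrays. Over the 27 genes that share had a median of 72.1% and ran from 3.12% to 100%. The gene at 3.12%, named after its value was seen, was Ifi27l2a, which differed by 0.06 at 4 h and by 1.96 at 24 h, and whose call was lost under a trended, robust variance prior (limma adjusted p = 0.0950) and without time as a block (0.314). Of the 27 genes, 14 had their smallest difference at 72 h, as did all Ifit members, and 12 at 4 h, as did none of them.

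Among all genes 2.05% rose and 0.371% fell in this comparison. Of 13 measured genes for the induction of interferon, from Toll-like receptor 4 to the interferons, 2 rose and 0 fell, with a median of 0.06. They were Irf7, which amplifies interferon production, at 1.76 ± 0.44 (limma adjusted p = 3.15e-05), and the kinase gene Ikbke at 0.71 ± 0.09 (0.000210), whose call was lost without time as a block (0.0920). The RNA sensors Ifih1 and Ddx58 and the DNA sensor Zbp1 are counted above among interferon-stimulated genes and rose by 1.88, 1.22 and 2.13. Irf3, the factor that acts on Ifit promoters directly, differed by -0.15 ± 0.16 (limma adjusted p = 0.608). Irf3 protein is switched on by phosphorylation, which arrays do not measure. Ifnb1, for interferon beta, differed by 0.07 ± 0.22 (limma adjusted p = 0.887). From 4 to 120 h its difference was 0.35, 0.07, 0.15, 0.04 and -0.25, and no time before 4 h was sampled. The change of that difference with log2 hours did not pass (limma adjusted p = 0.501). The highest Ifnb1 value was 6.80 in adiponectin cultures and 6.65 in control cultures, below every array median.

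Between the interferon receptor and the promoter, 3 of 8 measured genes rose and 0 fell, against 2.05% and 0.371% of all genes. The receptor genes Ifnar1 and Ifnar2 differed by 0.02 ± 0.16 and 0.04 ± 0.09 (limma adjusted p = 0.977 and 0.937), while Stat2 rose by 1.52 ± 0.21 (4.40e-06), Irf9 by 0.72 ± 0.08 (0.000166) and Irf1 by 0.79 ± 0.26 (0.000968). Among feedback genes of the receptor, 2 of 6 rose and 0 fell, Usp18 by 2.63 ± 0.25 (limma adjusted p = 6.05e-07) and Socs1, an inhibitor of Jak kinases, by 0.78 ± 0.52 (0.0251). The call of Socs1 was lost without the 4, 10 or 24 h pair (limma adjusted p up to 0.147), after repeated quantile normalization (0.0631), without time as a block (0.181) and with log2 hours in its place (0.0581).

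Genes for RNA capping enzymes, subunits of the initiation factor eIF3 and adaptors that bind Ifit proteins or viral RNA gave 1 call. Of all genes 2.05% were called higher and 0.371% lower, so lists this short would hold few calls at those shares. The counts below are therefore not read as a result about these molecules. Of 4 measured genes for RNA capping and cap methylation (Cmtr2, Rnmt, Pcif1 and Rngtt), 0 rose and 0 fell (limma; also 0 at an unadjusted p under 0.05), with differences from -0.10 to 0.05. Cmtr1, which places the cap methyl mark whose absence Ifit1 senses, is not analysed here. Of 11 measured subunits of eIF3, the initiation factor to which Ifit1 and Ifit2 bind, 0 rose and 0 fell (limma; 0 at an unadjusted p under 0.05), with differences from -0.18 to 0.08. Among 5 adaptors and RNA-binding partners, 1 rose, the RNA-processing enzyme gene Pnpt1, by 0.59 ± 0.12 (limma adjusted p = 0.00117), a call lost without time as a block (0.0667). Mavs, the adaptor of RNA sensors, differed by -0.06 ± 0.07 (0.890).

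**Figure D5:**
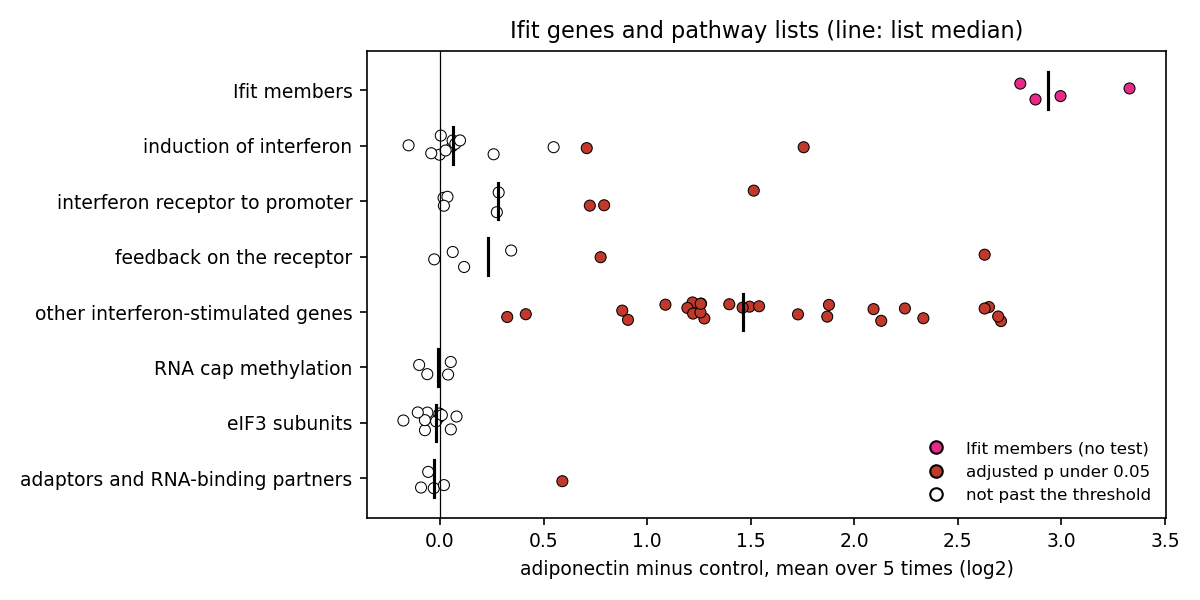
Adiponectin minus control, mean over the 5 times (log2, horizontal axis), for the 4 Ifit members and for each gene of the 7 pathway lists (rows), with a line at each list's median; red points passed limma at an adjusted p under 0.05, white points did not, and the Ifit members were not tested. The Ifit members lie between 2.80 and 3.33, to the right of every listed gene, the highest of which is Mx1 at 2.71.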

How the data were processed

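Values on a log2 scale, 1 per probe set and array, were deposited by the authors; RMA, Affymetrix Expression Console and Partek are named, without versions or order, per the submitters' processing notes. RMA corrects background, quantile normalizes and summarises probes, which would largely hide a change common to most genes. The genome build behind the probe sets is not given in the sources used here. Of 35556 probe sets, 21789 had 1 symbol in the platform annotation, and the one with the highest mean stood for each of 19938 genes. No dim genes were filtered, and signal over background is unknown.

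Fits used limma 3.58.1 in R 4.3.3 (lmFit, eBayes, two-sided, Benjamini-Hochberg over all genes, adjusted p under 0.05) and were tested on simulated data. For slopes the simulated courses were flat or straight lines over log2 hours, so courses that bend were not covered. Adiponectin was compared with control in a model that also held the 5 time points as blocks, leaving 4 degrees of freedom; the pairing comes from the labelled time. The change of the effect added treatment by log2 hours (3 degrees of freedom). Slopes came from a fit with a line per arm (6 degrees of freedom). The alternatives were other scalings, filters, time scales, designs and leaving out each pair. Named were the members, other Ifit symbols, the 10 nearest genes, 5 genes on either side of the cluster and, per list, up to 6 called genes plus fixed ones. Members and lists were chosen with earlier results of these data known. Symbols, positions and promoters are from RefSeq (GRCm38.p6); listed genes without a probe set of their own are not analysed here.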

Additional observations from a re-analysis of the deposited data

How the results depend on the processing

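With centred arrays the mean differences were 2.86 for Ifit1, 2.98 for Ifit2, 2.78 for Ifit3 and 3.31 for Ifit3b. The averaging of probe sets, the dim filter (which removed Ifit3b), the variance prior and the block cannot move them, and no stability is read from those. Leaving out each pair gave 2.71 to 3.07 for Ifit1, 2.85 to 3.19 for Ifit2, 2.67 to 3.02 for Ifit3 and 3.07 to 3.56 for Ifit3b. Over all genes, leaving out each pair gave 292 to 379 higher and 21 to 62 lower, and no replicate block (time left out) gave 146 higher and 4 lower. Under another quantile normalization 113 genes were lower, under a trended, robust variance prior 117, and with a log2 time covariate replacing the blocks 30. For the change of the difference with time, 2 genes rose and 3 fell with the trended prior, 2 rose with linear hours, and 0 to 1 rose without each pair; the term of Ifit2 ran from -0.20 to 0.062 without each pair. In adiponectin cultures, 23 to 868 genes rose and 15 to 940 fell over time without each pair, and the slope of Ifit1 passed with that arm alone at -0.19. In control cultures, 605 genes rose with the dim filter, 1743 with linear hours, 513 with the arm alone and 5 to 1476 without each pair, while 1559 fell with centred arrays, 1335 with linear hours, 490 with the arm alone and 17 to 1195 without each pair. Control slopes of the members near 0 changed sign: for Ifit1 to -0.00848 (quantile), -0.018 (centred) and -0.00246 per hour (linear), for Ifit3 to -0.0177 (centred) and -0.00435 per hour, and for Ifit3b to -0.000733 per hour. Without each pair they ran from -0.067 to 0.17 for Ifit1, -0.26 to 0.066 for Ifit2, -0.11 to 0.28 for Ifit3 and -0.035 to 0.23 for Ifit3b. The cause of these shifts was not tested. With 1 culture per arm and time, no single time has a replicate, and signal over background limits dim genes to an unknown degree.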
